A study of Mus musculus with 3 samples.

Results

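Hand1, Foxf1, Tbx3, Tbx4, Msx1, Pmp22, Ahnak, Postn and Spin2c are 9 genes linked to the allantois and the yolk sac mesoderm, and they were taken as a list from the 32285 genes counted in these data. RNA of single cells from normal embryos of the ARC mouse strain was counted in 3 libraries. They come from embryos of embryonic day 7.0 (E7.0), from embryos of E7.25 and from the posterior region of E7.5 embryos (E7.5 posterior), and runs of 3 values below follow that stage order. Each stage is 1 library, so stage, library and, at E7.5, the dissected region cannot be told apart, and how many embryos were pooled is not stated. The counts are unique molecular identifiers (UMIs), each of which stands for 1 captured RNA molecule, from the 3' end of transcripts. Cells with at least 1000 genes detected and no more than 10% of UMIs from mitochondrial genes were used, and those with a UMI of Elf5, Rhox6 or Rhox9, genes of the trophoblast lineage, were described separately.

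Extraembryonic mesoderm leaves the posterior primitive streak early in gastrulation and lines the yolk sac, the amnion and the chorion, and the allantois grows from it as the bud of the later umbilical cord. BMP4 from the extraembryonic ectoderm and from this mesoderm itself is needed for the allantois to form. Hand1 encodes a basic helix-loop-helix transcription factor needed for yolk sac and trophoblast development, and Foxf1 a forkhead factor needed for extraembryonic and lateral mesoderm. Tbx3 and Tbx4 encode T-box factors, of which Tbx4 is needed for the vessels of the allantois, and Msx1 encodes a homeodomain factor that responds to BMP. Pmp22 encodes a membrane protein of myelin that many tissues also make, Ahnak a very large scaffold protein at the membrane, Postn a secreted matrix protein of mesenchyme, and Spin2c a member of the Spindlin family of histone readers.

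The promoters of 5 of these genes are shown because their genes were found in different sets of cells. Pmp22 and Spin2c were highest in cells like extraembryonic mesoderm. Ahnak stood high also in trophoblast, Msx1 also in visceral endoderm, and Tbx4 was found in few cells. RefSeq (GRCm38.p6) gave 10 starts for 6 of the 9 genes, each with 250 bases before and 50 after the start, and Hand1, Foxf1 and Tbx3 had no entry. Capitals mark matches, on either strand, to the E-box CANNTG, the GATA motif GATAA, the forkhead motif TAAACA, the T-box core AGGTGT and the SMAD motif GGCGCC.
Pmp22, chr11:63131207-63131506, plus strand: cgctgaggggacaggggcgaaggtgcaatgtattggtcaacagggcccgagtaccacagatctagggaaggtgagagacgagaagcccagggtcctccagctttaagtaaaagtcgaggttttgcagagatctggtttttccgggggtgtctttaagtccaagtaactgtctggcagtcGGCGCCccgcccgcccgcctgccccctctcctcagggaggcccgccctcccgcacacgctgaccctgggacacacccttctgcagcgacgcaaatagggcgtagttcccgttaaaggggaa
Ahnak, chr19:8989034-8989333, plus strand: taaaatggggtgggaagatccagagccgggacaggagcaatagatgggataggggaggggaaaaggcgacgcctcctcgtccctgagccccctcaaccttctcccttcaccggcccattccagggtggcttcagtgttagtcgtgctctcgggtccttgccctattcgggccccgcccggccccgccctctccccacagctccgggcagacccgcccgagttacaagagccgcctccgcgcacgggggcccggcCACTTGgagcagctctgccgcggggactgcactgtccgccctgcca
Spin2c, chrX:153832043-153832342, plus strand: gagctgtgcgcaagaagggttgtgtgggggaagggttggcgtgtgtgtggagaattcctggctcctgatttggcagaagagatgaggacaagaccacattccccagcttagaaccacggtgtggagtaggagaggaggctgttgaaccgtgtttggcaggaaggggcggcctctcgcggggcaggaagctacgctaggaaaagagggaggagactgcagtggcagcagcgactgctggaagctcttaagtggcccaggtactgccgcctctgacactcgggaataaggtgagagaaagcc
Msx1, chr5:37824536-37824835, minus strand: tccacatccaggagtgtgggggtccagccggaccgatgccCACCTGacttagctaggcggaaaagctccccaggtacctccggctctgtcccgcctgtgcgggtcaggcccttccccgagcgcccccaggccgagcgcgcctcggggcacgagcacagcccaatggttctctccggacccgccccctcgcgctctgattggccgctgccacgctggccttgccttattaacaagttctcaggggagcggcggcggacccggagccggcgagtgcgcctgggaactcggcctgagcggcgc
Tbx4, chr11:85896515-85896814, plus strand: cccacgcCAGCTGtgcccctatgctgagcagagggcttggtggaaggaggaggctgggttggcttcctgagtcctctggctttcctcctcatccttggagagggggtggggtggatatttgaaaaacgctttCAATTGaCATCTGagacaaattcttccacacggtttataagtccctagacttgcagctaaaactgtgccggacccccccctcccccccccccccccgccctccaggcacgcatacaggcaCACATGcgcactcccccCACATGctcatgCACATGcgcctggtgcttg
Tbx4 held 6 E-boxes, Msx1 and Ahnak 1 each, this start of Pmp22 1 SMAD motif, and Spin2c no match, and no match overlapped another. Of 32851 mouse promoters of the same 300 bases, 72.3% held an E-box, 25.4% the GATA motif, 13.7% the T-box core, 13.4% the forkhead motif and 11.9% the SMAD motif. Of the other 5 starts, those of Pmp22 at 63132319 and 63132553 held 1 E-box and 1 SMAD motif in that order, and the rest held none of the 5 motifs. A match is a string of letters and not a bound site.

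After the filters 7941, 5194 and 8438 cells remained at the 3 stages, of which 251, 511 and 87 had a UMI of a trophoblast gene and 7690, 4683 and 8351 were analysed. Their median depth was 11223, 8161 and 9244 UMIs per cell. Between 14 and 35 barcodes were shared by any pair of libraries. Levels are given in CPM, the UMIs of a gene scaled by all UMIs of the cells summed, which compare libraries for 1 gene and not genes with each other. All intervals are 95% and cover counting error only, since PCR and embryos add error that 1 library per stage does not show. In a sum over cells, fewer cells of a type and less RNA per cell cannot be told apart.

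Of the transcription factors, Hand1 stood out at E7.25. Hand1 (chromosome 11, 57828705 to 57832818, minus strand, GRCm38) stood at 23.3 CPM at E7.0 (22.4 to 24.3), 99.4 CPM (96.3 to 102.4) at E7.25 and 50.5 CPM (49.0 to 52.0) in the E7.5 posterior library. A Hand1-positive cell carried 3.06, 4.04 and 3.13 Hand1 UMIs on average at the 3 stages. Foxf1 (chromosome 8, 121084386 to 121088144, plus strand) stood at 8.24, 23.1 and 16.9 CPM at the same stages. Both were lowest at E7.0 and highest at E7.25. The annotation places Gm20388 on the same strand over Foxf1, so reads there may have been dropped as ambiguous.

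Msx1 and Tbx3 varied less between E7.0 and E7.25. Msx1 (chromosome 5, 37820485 to 37824583, minus strand) stood at 31.1, 60.9 and 31.7 CPM in stage order. Tbx3 (chromosome 5, 119670669 to 119684724, plus strand) stood at 18.6, 30.3 and 12.3 CPM. Both were highest at E7.25, and Tbx3 alone of the 7 well detected genes had its lowest level at E7.5 posterior. Tbx4 (chromosome 11, 85886422 to 85916097) was rare, with 0 UMIs at E7.0, 34 UMIs in 21 cells at E7.25, and 6 UMIs in 6 E7.5 posterior cells. The count of 0 in 7690 cells allows up to 0.0288 CPM, taken as 3 UMIs in the library.

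Among the 7 well detected genes Ahnak had the steepest profile. Pmp22 (chromosome 11, 63128982 to 63159547) stood at 12.8, 54.5 and 23.4 CPM in stage order. Ahnak (chromosome 19, 8989284 to 9076914) stood at 3.28, 35.1 and 11.3 CPM. Spin2c (chromosome X, 153832225 to 153834243), the chromatin reader gene, stood at 12.9, 35.7 and 21.02 CPM. All 3 were lowest at E7.0 and highest at E7.25, with intervals that did not overlap between libraries. Spin2c has relatives on the X chromosome, and 1.08% of the 31-base words in its last 500 bases also occur in transcripts of other genes. Postn (chromosome 3, 54361109 to 54391037) had 2, 3 and 2 UMIs, so at this depth its level was not measurable in any library.

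**Figure D1:**
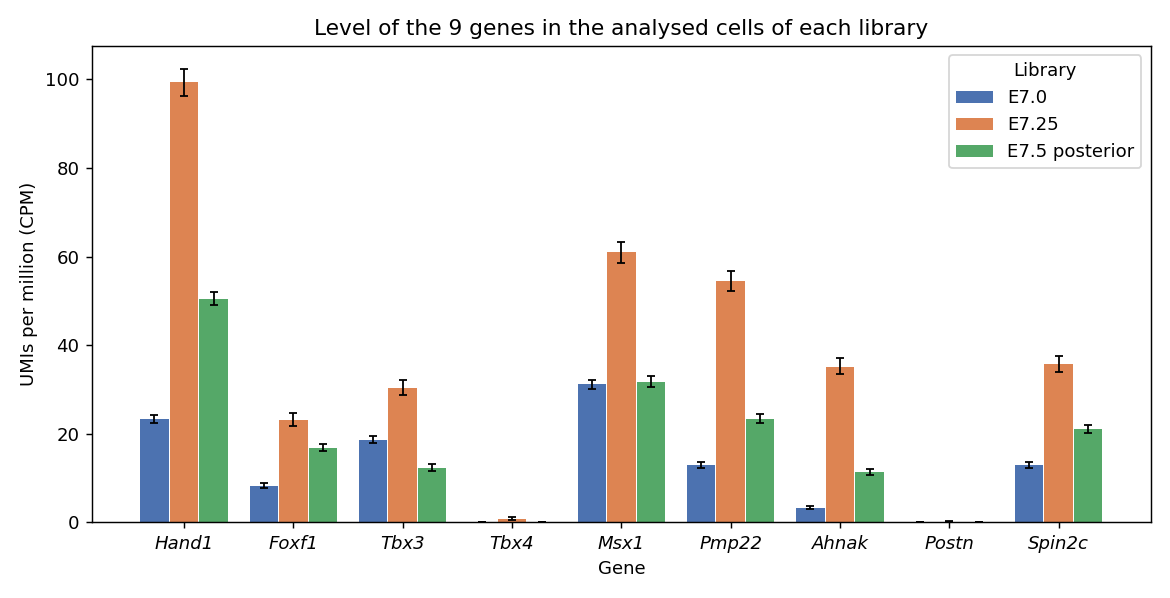
Bars show the level in CPM in the analysed cells of each library, with Poisson 95% intervals, for the 9 genes. The 7 well detected genes are highest at E7.25, with Hand1 at 99.4 CPM, while Tbx4 and Postn stay near 0.

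A gene was counted as measured if either library reached 20 CPM and as changed at a ratio of 2 or more. At E7.25 against E7.0, 7 of the 9 genes were measured and 5 of them were higher and 0 lower, where 2.75% of the 5563 measured genes were higher and 1.51% lower. Their log2 ratios were 3.42 for Ahnak (3.25 to 3.60), 2.09 for Hand1 (2.02 to 2.16), 2.09 for Pmp22 (1.99 to 2.19), 1.49 for Foxf1 (1.35 to 1.62) and 1.47 for Spin2c (1.36 to 1.58). Msx1, at 0.97, and Tbx3, at 0.71, stayed within 2-fold. The median over the 7 genes was 1.49, beside 0.12 over all measured genes. Of the 5 higher genes, Hand1 alone reached 20 CPM in both libraries. Foxf1, Pmp22, Ahnak and Spin2c passed the minimum only through E7.25, where they were high, so the count and the median are descriptions. Tbx4, below the minimum, had a ratio of 28.4 when E7.0 is set to 3 UMIs. The interval of the ratio for the counts as observed, 34 against 0 UMIs, had a lower limit of 4.45 on the log2 scale.

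At E7.5 posterior against E7.25, 3 of 7 measured genes were lower and 0 higher, where 2.9% of 5581 measured genes were lower and 0.968% higher. Log2 ratios were -1.63 for Ahnak (-1.75 to -1.52), -1.30 for Tbx3 (-1.42 to -1.18) and -1.22 for Pmp22 (-1.31 to -1.13). Hand1, at -0.98, and Msx1, at -0.94, lay just inside the limit, while Spin2c was at -0.76 and Foxf1 at -0.45. The median was -0.98, beside -0.08 over all measured genes. Of the 3 lower genes Pmp22 reached 20 CPM in both libraries, while Ahnak and Tbx3 passed the minimum only through E7.25. At E7.5 posterior against E7.0, 4 of the 9 genes were measured and only Hand1 was called, at 1.11 (1.04 to 1.19), where 0.608% of 5262 measured genes were higher. Pmp22 at 0.87, Spin2c at 0.70 and Msx1 at 0.03 stayed within 2-fold. Below the minimum, and so not called, Ahnak was at 1.79 (1.61 to 1.97), above Hand1. Foxf1 was at 1.03 (0.91 to 1.16) and Tbx3 at -0.60, also below the minimum. These 3 comparisons share libraries, and no test was possible with 1 library per stage.

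To see which cells held these genes, cells of the 3 libraries were clustered without the 9 genes, and clusters were named by likeness from marker genes. A single cluster was extraembryonic mesoderm-like, by Bmp4, Msx2, Bambi, Igf2 and Hand2, ahead of 3 markers of the cardiac mesoderm-like class. It held 43 of 7941 kept cells at E7.0 (0.541%, 0.392 to 0.729), 466 of 5194 at E7.25 (8.97%, 8.21 to 9.78), and 327 of the 8438 E7.5 posterior cells (3.88%, 3.47 to 4.31). The size of this cluster depended on the clustering, with shares of 0.164%, 6.37% and 1.47% at a finer Leiden resolution of 2, and of 0.403%, 12.1% and 6.53% with 50 principal components in place of 30. Bmp4 stood at 217, 289 and 223 CPM in its analysed cells, against 6.94, 18.2 and 8.96 CPM in all other analysed cells. Wnt2, of the same marker list, ran the other way, at 1.79, 4.84 and 9.36 CPM against 12.6, 8.78 and 11.8 CPM. The allantois genes Hoxa10, Hoxa11 and Hoxa13 were each at or under 3.87 CPM in this cluster in every library. At E7.25 Hoxa10 stood at 3.87 CPM in it and 0.134 CPM in all other analysed cells, and Hoxa11 at 2.42 and 0.0268 CPM. At E7.0 they had no UMI in the cluster, and neither did the markers Vcam1 and Hapln1.

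In extraembryonic mesoderm-like cells the levels of the 7 well detected genes spread less over the stages than in all analysed cells. Hand1 stood at 619 CPM at E7.0 (556 to 688), 654 CPM (629 to 679) at E7.25 and 603 CPM (576 to 630) in the E7.5 posterior library. Foxf1 stood at 129, 124 and 139 CPM, and Spin2c at 254, 247 and 258 CPM. For these 3 genes the E7.0 intervals overlapped those of both later libraries. Pmp22 stood at 263, 409 and 356 CPM and Ahnak at 150, 257 and 189 CPM, so both were lowest at E7.0, although for Ahnak the E7.0 interval (119.9 to 186) overlapped that of E7.5 posterior (174 to 205). Tbx3 had its highest level in these cells at E7.0, at 119.9 CPM, with 83.2 and 78.7 CPM at the later stages, and Msx1 stood at 245, 199 and 174 CPM. The E7.0 values rest on 43 cells. The order of Pmp22 and Ahnak over the stages depended on the clustering. With 50 principal components Pmp22 stood at 272, 333 and 238 CPM and Ahnak at 182, 197 and 114 CPM, both lowest at E7.5 posterior. Hand1 then stood at 584, 575 and 462 CPM and Spin2c at 272, 199 and 170 CPM. At resolution 2 Pmp22 stood at 401, 510 and 576 CPM and Ahnak at 308, 335 and 338 CPM. Without predicted doublets Ahnak stood at 186, 266 and 168 CPM.

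Between E7.5 posterior and E7.25, which had 325 and 459 analysed cells of this kind, 0 of 7 measured genes reached 2-fold within the cluster, where 2.03% of 5616 measured genes did. Their log2 ratios lay between -0.44 for Ahnak and 0.16 for Foxf1, with a median of -0.12. Tbx4 was the exception among the rare genes, with 2 UMIs at E7.5 posterior and 30 UMIs at E7.25, a log2 ratio of -3.54 (-6.65 to -1.56).

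With the extraembryonic mesoderm-like cells left out, fewer genes passed the minimum. At E7.25 these cells held between 27.3% (Tbx3) and 74.7% (Pmp22) of the UMIs of each of the 7 well detected genes. Leaving them out therefore lowers the E7.25 levels whatever the other cells held, and the counts are descriptions. At E7.25 against E7.0, 3 of the 9 genes were then measured and 0 reached 2-fold, where 4.1% of 5566 genes did. Hand1 was at 0.92 (0.82 to 1.01). With the smaller cluster of resolution 2 left out instead, Hand1 was at 1.30 (1.21 to 1.39), past 2-fold, and with the larger one of 50 principal components it was at 0.28. In the clustering used throughout, Msx1 was at 0.61 and Tbx3 at 0.44. Below the minimum on level, Spin2c was at 0.09 (-0.07 to 0.25), Pmp22 at 0.42 and Foxf1 at 0.65. Ahnak, also below it, was at 2.09 with 10.6 CPM against 2.48 CPM, below its 3.42 in all analysed cells. With the cluster of 50 principal components left out instead, Spin2c was at -0.20 (-0.37 to -0.03), Pmp22 at -0.05 and Foxf1 at -0.04. The signs of these genes thus depended on the clustering. With that of resolution 2 left out they were at 0.38, 0.68 and 0.88. Ahnak was then at 2.17, and at 1.97 with 50 principal components. At E7.5 posterior against E7.25, Tbx3 was the 1 gene of 3 measured still lower, at -1.33, where 2.97% of 5583 genes were lower. Ahnak, below the minimum, was at -1.23 (-1.43 to -1.02), and at -0.92 with the cluster of resolution 2 left out.

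**Figure D2:**
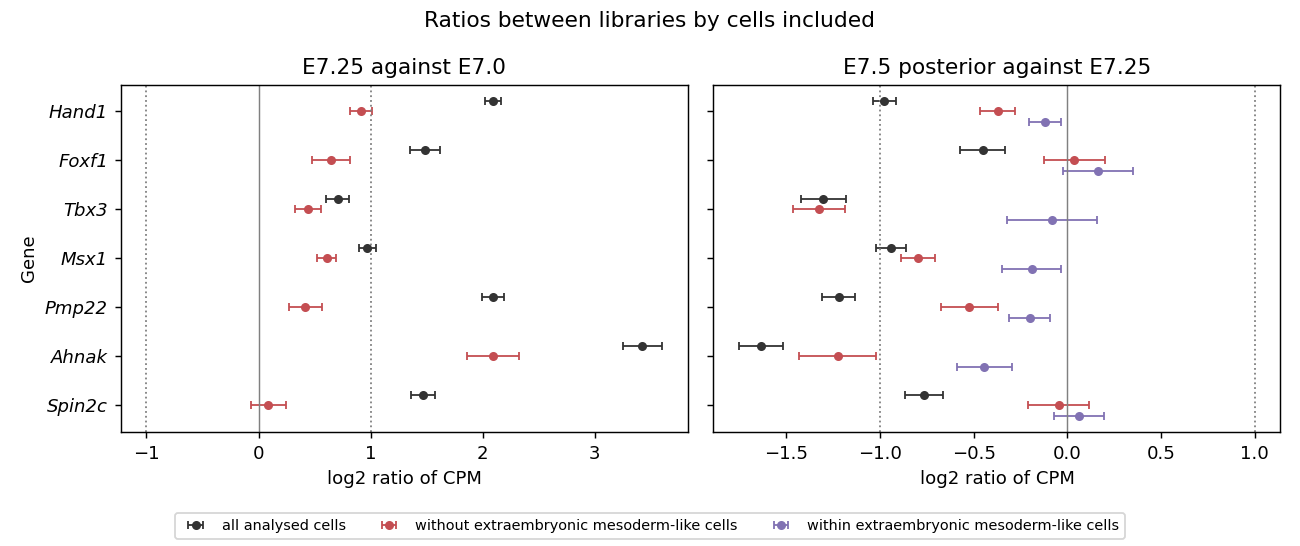
Points show the log2 ratio of CPM for 7 genes with 95% intervals, for all analysed cells, without the extraembryonic mesoderm-like cells, and within them for the later pair. Dotted lines mark 2-fold. Without these cells Spin2c lies near 0 at E7.25 against E7.0, and within them all 7 genes lie inside the dotted lines.

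Where the UMIs came from differed by stage. Of all Hand1 UMIs, 14.2%, 65.6% and 44.0% at the 3 stages lay in extraembryonic mesoderm-like cells, which were 0.559%, 9.80% and 3.89% of analysed cells. The Hand1 shares were 6.71%, 49.9% and 21.6% at resolution 2, and 10.2%, 77.8% and 58.7% with 50 principal components. At E7.0, 70.3% of Hand1 UMIs and 82.1% of Foxf1 UMIs lay in nascent mesoderm-like cells, at 48.6 and 20.03 CPM. The nascent mesoderm-like cells were not uniform. In the one of their 2 clusters led by Myl7, Kdr and Mesp1, Hand1 stood at 81.1 CPM and Foxf1 at 32.1 CPM at E7.0, against 6.41 and 4.31 CPM in the other, led by Lefty2, Mesp1 and Mesp2. At E7.25, an unnamed cluster of 858 analysed cells led by Hoxb3os, Crabp1 and Tbx6 held Hand1 at 86.5 CPM and Foxf1 at 36.9 CPM. At E7.5 posterior a paraxial mesoderm-like cluster of 1494 cells led by Pcdh19 and Foxc2 held them at 82.1 and 45.9 CPM. The names of such cells depended on the resolution. At resolution 2, 186 of the 320 paraxial mesoderm-like cells with UMIs of both Hand1 and Foxf1 at E7.5 posterior (58.1%), and 94 of 122 such cells of the unnamed cluster at E7.25 (77.0%), lay in cardiac mesoderm-like clusters. So did 115 of the 459 extraembryonic mesoderm-like cells at E7.25 (25.1%) and 183 of 325 at E7.5 posterior (56.3%).

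Tbx3 and Msx1 were also found in visceral endoderm. In visceral endoderm-like cells, the outer layer of the yolk sac and embryo, Msx1 stood at 105.4, 138 and 124 CPM in stage order. It was higher in extraembryonic mesoderm-like cells, at 245, 199 and 174 CPM, with separate intervals in each library. Tbx3 stood there at 92.4, 88.1 and 85.0 CPM. For Tbx3 the intervals overlapped those of extraembryonic mesoderm-like cells at all 3 stages. These cells held 35.3%, 44.3% and 23.9% of all Tbx3 UMIs and 24.1%, 34.5% and 13.5% of all Msx1 UMIs. Hand1 stood at 0.54, 17.1 and 4.32 CPM in the same cells and Foxf1 at 0.676, 4.26 and 1.33 CPM. The summed level of 10 visceral endoderm markers over all analysed cells was 2592, 4815 and 1328 CPM at the 3 stages. Its order over the stages was that of Tbx3, and a link between them was not tested. With visceral endoderm-like and trophoblast-like clusters left out, Tbx3 stood at 12.9, 19.8 and 9.70 CPM, in the same order over the stages. Its log2 ratio at E7.25 against E7.0 was then 0.61 (0.48 to 0.75). At E7.5 posterior against E7.25 it was -1.03 (-1.18 to -0.88), with the E7.25 level just under the minimum. The 3 genes then called lower were Hand1, Pmp22 and Ahnak, where 1.35% of 5414 genes were lower.

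Hand1 and Ahnak were also found in trophoblast. In the trophoblast-like cluster, with 110 and 311 kept cells at E7.0 and E7.25, Hand1 stood at 105.8 and 166 CPM and Ahnak at 90.5 and 147 CPM. The same cells had 0 and 18 Msx1 UMIs, 1 and 15 Foxf1 UMIs and 5 and 26 Pmp22 UMIs, none above 8.22 CPM. At E7.5 posterior the cluster had 12 cells. The rule on Elf5, Rhox6 and Rhox9 took in other cells too. Of the cells it set apart, 42.2%, 57.7% and 13.8% lay in the trophoblast-like cluster at the 3 stages, and 39.0%, 28.4% and 56.3% were visceral endoderm-like. Ahnak stood at 35.8 CPM in the cells set apart and 3.28 CPM in the analysed cells at E7.0, and at 83.7 and 35.1 CPM at E7.25. Foxf1 ran the other way, at 0.70 CPM in the cells set apart and 8.24 CPM in the analysed cells at E7.0, and at 6.95 and 23.1 CPM at E7.25.

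Haemato-endothelial-like cells, the other derivative of yolk sac mesoderm, held Pmp22 at 113.6, 69.5 and 73.3 CPM and Hand1 at 66.2, 79.5 and 79.9 CPM in stage order. Ahnak stood there at 27.5, 107.1 and 38.6 CPM. All 3 genes were lower there than in extraembryonic mesoderm-like cells of the same library. Ahnak and Msx1 were also found in anterior streak and definitive endoderm-like cells, at 4.31, 23.2 and 23.8 CPM and at 16.8, 26.2 and 24.2 CPM. Over all analysed cells Ahnak stood at 3.28, 35.1 and 11.3 CPM and Msx1 at 31.1, 60.9 and 31.7 CPM. In these cells Ahnak was thus above that level at E7.0 and E7.5 posterior, and Msx1 was below it at each stage.

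**Figure D3:**
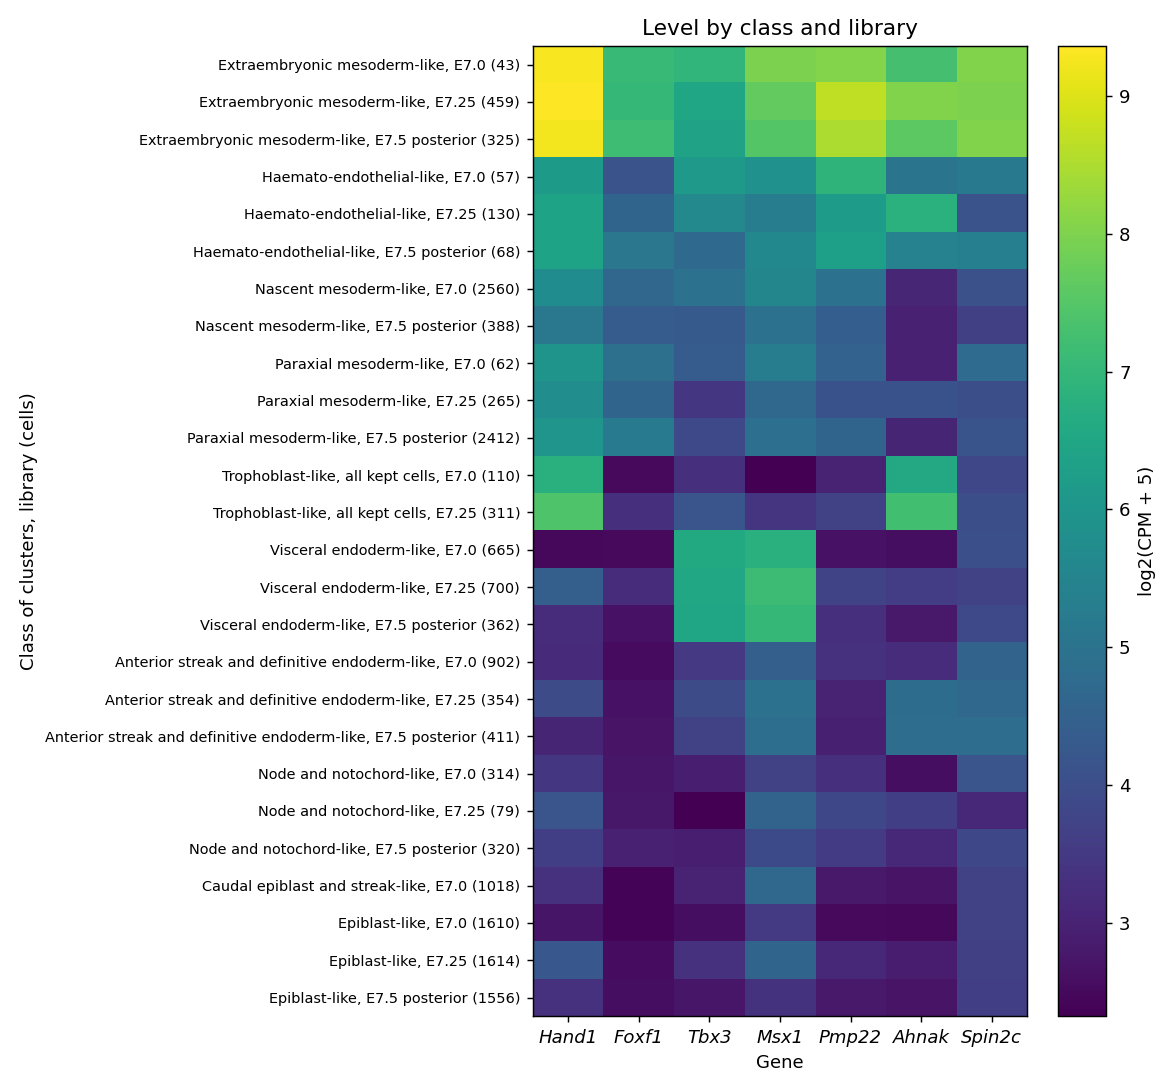
Colour shows log2(CPM + 5) of 7 genes in each class of clusters and library, with the number of analysed cells (all kept cells for the trophoblast-like cluster). All 7 genes are high in extraembryonic mesoderm-like cells, Tbx3 and Msx1 also in visceral endoderm-like cells, and Hand1 and Ahnak also in trophoblast-like cells.

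Detection per cell was compared at equal depth, after each cell was thinned to 5000 UMIs, which left 7090, 4196 and 7586 cells. Hand1 was then found in 85.7%, 88.8% and 88.7% of extraembryonic mesoderm-like cells, Pmp22 in 57.1%, 75.5% and 70.0%, and Foxf1 in 38.1%, 47.3% and 45%. In epiblast-like cells, set beside them, Hand1 was found in 0.638%, 5.58% and 2.004%. Median depth before thinning was 10301, 8294 and 8784 UMIs in extraembryonic mesoderm-like cells and 11648, 8401 and 10192 UMIs in epiblast-like cells. The shares of Hand1-positive cells lay far higher in extraembryonic mesoderm-like than in epiblast-like cells. The source of the Hand1 UMIs in epiblast-like cells was not tested.

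The genes were found together more often than independent detection gives. Of the 21 pairs among the 7 well detected genes, 21 had more shared cells than expected from their separate shares in each library, with a median ratio of 3.28, 2.51 and 3.92 in stage order. The highest ratio was that of Hand1 and Foxf1 at E7.0, with 126 cells against 16.1 expected. At E7.25 and E7.5 posterior it was that of Pmp22 and Ahnak, at 4.56 and 6.60. The lowest was that of Msx1 and Spin2c at E7.0, at 1.52, and at E7.25 it was that of Hand1 and Tbx3, at 1.89. Cells of 1 library are not replicates, so these are descriptions.

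Foxf1 was found in 26.4% of Hand1-positive cells at E7.0 (22.5 to 30.6), against 1.72% of Hand1-negative cells (1.42 to 2.07). The shares were 37.7% and 2.65% at E7.25, and 30.1% and 3.19% at E7.5 posterior. In the reverse direction, 52.5%, 75.8% and 57.1% of Foxf1-positive cells had Hand1. Tbx3 gave the smallest contrast at E7.25, found in 23.0% of Hand1-positive and 9.83% of Hand1-negative cells.

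**Figure D4:**
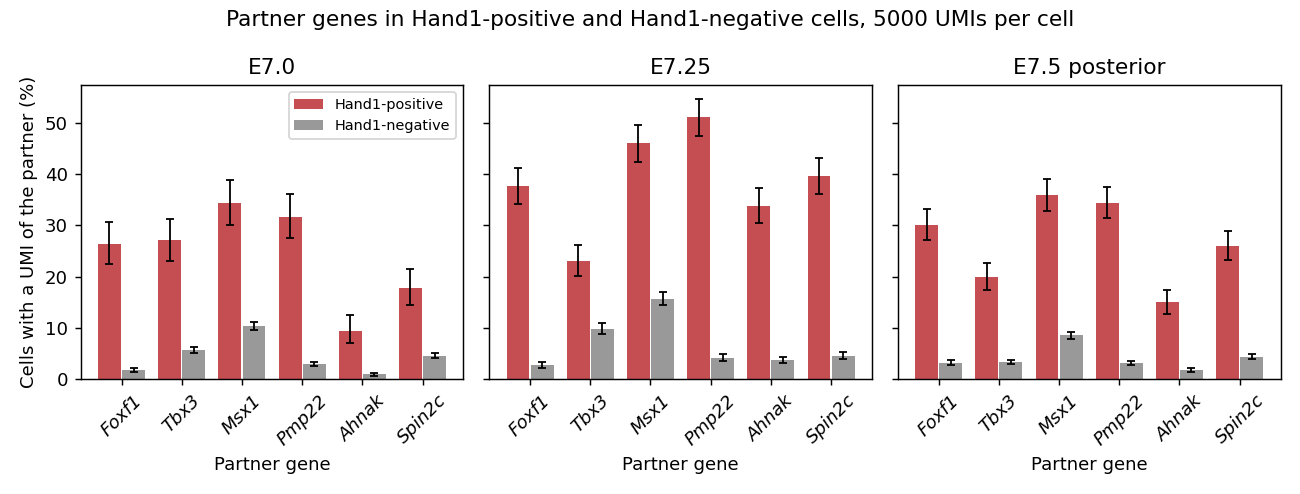
Bars show how often each partner gene was detected, as a percentage of cells, among Hand1-positive cells (red) and Hand1-negative cells (grey), at 5000 UMIs per cell, with Clopper-Pearson 95% intervals. Red bars are higher for every partner in each library, as for Foxf1 at E7.0 with 26.4% and 1.72%.

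The joint detection was not limited to the extraembryonic mesoderm-like cluster. Without that cluster, 21 of 21 pairs were still above 1 in each library, with medians of 2.95, 2.46 and 2.53 and lowest ratios of 1.22, 1.25 and 1.43. The share of cells with the partner gene, in cells with and without the other gene, had separate intervals in 19, 16 and 18 of the 21 pairs and overlapping ones in the others. Among nascent mesoderm-like cells at E7.0, Foxf1 was found in 29.4% of Hand1-positive cells (24.7 to 34.4), against 4.52% of Hand1-negative cells (3.69 to 5.49). Among paraxial mesoderm-like cells at E7.5 posterior the shares were 33.0% (28.4 to 37.8) and 8.63% (7.40 to 10.0). Both classes pool clusters, and those of the nascent mesoderm-like cells differed in Hand1 and Foxf1, as given above. Pooling unlike cells gives joint detection even where genes are independent within each kind. Joint detection within single clusters of these classes was not tested. Within the extraembryonic mesoderm-like cluster the contrast was smaller, at 49.3% (44.2 to 54.5) and 31.3% (18.7 to 46.3) at E7.25, with overlapping intervals. Of 6 partners there, 4 had separate intervals, which were Pmp22 at 77.7% (73.2 to 81.8) and 58.3% (43.2 to 72.4), Ahnak at 55.4% and 31.3%, Spin2c at 65.1% and 39.6%, and Msx1 at 62.7% and 37.5%. For Tbx3, at 30.4% and 31.3%, the intervals overlapped. At E7.5 posterior the intervals within the cluster were separate for Pmp22 alone, at 74.4% (68.8 to 79.6) and 35.3% (19.7 to 53.5). Predicted doublets were kept here, and with them left out Foxf1 was found in 27.99%, 37.8% and 31.3% of all Hand1-positive cells at the 3 stages.

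Cells with 3 or more of the 9 genes made up 3.30% at E7.0 (234 cells, 2.90 to 3.74), 12.5% at E7.25 (524 cells, 11.5 to 13.5), and 6.18% of E7.5 posterior cells (469 cells, 5.65 to 6.75). Independent detection would give 0.517%, 5.30% and 1.16%. Their median depth before thinning was 11298, 8627 and 9075 UMIs, against 11757, 8514 and 9706 UMIs in the others, so they were deeper at E7.25 alone. At E7.0, 76.1% of them were nascent mesoderm-like and 14.1% extraembryonic mesoderm-like. At E7.25, 71.2% were extraembryonic mesoderm-like, and at E7.5 posterior 53.1% were extraembryonic mesoderm-like and 29.6% paraxial mesoderm-like. Within the extraembryonic mesoderm-like cluster, 78.6%, 86.9% and 83.0% of cells had 3 or more.

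**Figure D5:**
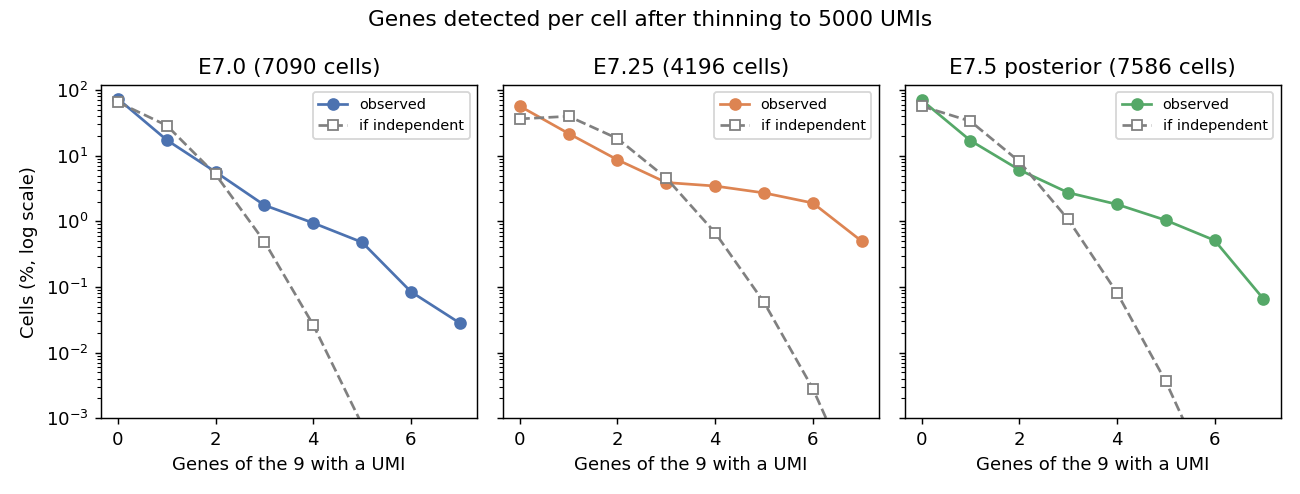
Lines show the share of cells (log scale) with 0 to 7 of the 9 genes after thinning to 5000 UMIs, as observed and as computed if each gene were detected independently. Observed shares lie above the dashed lines from 4 genes on in each library, and at E7.25 5.12% of cells have 5 or more.

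The rare genes were followed cell by cell. Of 21 Tbx4-positive cells at E7.25, 17 were extraembryonic mesoderm-like, 19 had Hand1, 17 had Spin2c and 14 had Msx1. At E7.5 posterior 2 of 6 were extraembryonic mesoderm-like. The 17 Tbx4-positive cells of the cluster were set beside its other 442 analysed cells at E7.25, with 131186 and 4004730 UMIs in all. Of the allantois list, Cdx4, a caudal homeobox gene, stood at 198 CPM in Tbx4-positive cells and 32.0 CPM in the others, a log2 ratio of 2.63 (1.96 to 3.25). Cdx2 stood at 305 and 111 CPM (1.46, 0.95 to 1.92), Nkx1-2 at 53.4 and 7.99 CPM (2.74, 1.31 to 3.95) and Pitx1, a hindlimb homeobox gene, at 99.1 and 39.7 CPM (1.32, 0.38 to 2.13). T had 0 UMIs in Tbx4-positive cells and 228 in the others. Of the 12 genes of the list, these 4 had an interval of the ratio above 0 and T alone one below 0. The intervals of the other 7 held 0, and 3 of them, Hoxa13, Wnt2 and Vcam1, had no UMI in Tbx4-positive cells. Hand1 stood at 694 and 652 CPM and Foxf1 at 137 and 124 CPM, with intervals of their ratios that held 0, while Pmp22 stood at 183 and 416 CPM (-1.19, -1.83 to -0.61) and Ahnak at 137 and 261 CPM (-0.93, -1.69 to -0.26). The Tbx4-positive cells are few and were counted in 1 library. Of 7 Postn-positive cells in all libraries, 5 were node and notochord-like and 1 was extraembryonic mesoderm-like.

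Likeness between genes was taken as Pearson's r of log2(CPM + 5) over 42 sums of cells, 1 for each cluster of at least 50 cells in a library, among 8001 genes. Sums of 1 library share its depth and free RNA, so r is a description. Hand1 and Foxf1 were alike at 0.94, Hand1 and Pmp22 at 0.92, and Tbx3 and Msx1 at 0.92, while Hand1 and Tbx3 were at 0.27. The genes most like Hand1 were Hand2 at 0.90, Bmp4 at 0.90 and Phlda2 at 0.89, and those most like Foxf1 were Hand2 at 0.93, Phlda2 at 0.92 and Bmp4 at 0.88. Bmp4, at 0.95, Rubie, at 0.90, and Ets1, at 0.88, were most like Pmp22. Prdm6 was most like both Tbx3, at 0.91, and Msx1, at 0.90, followed by Pwwp2b and Pcgf5 at 0.89 and 0.88 for Tbx3 and by Plac1 and Morc4 at 0.87 for Msx1. For Ahnak these were Anxa2, Capn6 and Nrp1 at 0.88, 0.85 and 0.84, and for Spin2c Rubie, Fendrr and Tdo2 at 0.82, 0.81 and 0.80.

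Other genes of the same tissues were counted from lists. Of 7 measured genes of extraembryonic mesoderm beside the 9, 4 were at least 2-fold higher at E7.25 against E7.0 and 0 lower, with a median log2 ratio of 1.10. Over all measured genes 2.75% were higher and 1.51% lower in this comparison. Bmp4 stood at 45.2 and 8.06 CPM, Tagln, an actin-binding protein, at 28.0 and 7.16 CPM, the growth factor Igf2 at 46.3 and 16.5 CPM, and Vim, an intermediate filament, at 124 and 57.8 CPM. Of these 4 genes Vim alone reached 20 CPM in both libraries, and the others passed the minimum only through E7.25. At E7.5 posterior against E7.25, 5 of 7 were lower, where 2.9% of all measured genes were. Tagln stood at 7.41 and 28.0 CPM and Krt8 at 177 and 362 CPM. Here too Tagln, Igf2 and Bmp4 passed the minimum only through E7.25. Of 8 measured BMP genes 2 were higher at E7.25 against E7.0, namely Bmp4 and Id2, a BMP target, at 81.9 and 20.1 CPM. Bmp4 is on the extraembryonic mesoderm list too and was counted in each. Of the allantois list, 3 of 3 measured genes were higher at E7.5 posterior against E7.0, which were T, Cdx2 and Nkx1-2, genes that the streak also uses. Over all measured genes 0.608% were higher. Cdx2, at 58.7 and 8.53 CPM, and Nkx1-2, at 29.1 and 2.40 CPM, passed the minimum only through E7.5 posterior. T reached it in both libraries, at 225 and 101 CPM. Of 3 measured genes of this list 1 was higher and 0 lower at E7.25 against E7.0, with a median of 0.58. At E7.5 posterior against E7.25, 1 of 4 was higher and 0 lower, with a median of 0.59, and Nkx1-2 stood at 29.1 and 12.1 CPM. The higher gene of these comparisons, Cdx2 and then Nkx1-2, also passed the minimum only through the library where it was high. The list counts are therefore descriptions.

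Lists of neighbouring tissues gave other counts. Beside them, 2.75% of all measured genes were higher and 1.51% lower at E7.25 against E7.0. At E7.5 posterior against E7.25 these shares were 0.968% and 2.9%. Of 4 measured lateral and cardiac genes, 0 were higher and 1 lower at E7.25 against E7.0, Lefty2, at 53.5 and 143 CPM. Of 9 measured matrix and mesenchyme genes 2 were higher, with Sparc at 298 and 123 CPM, and 1 lower, Snai1, at 25.3 and 50.6 CPM. The other higher gene was Vim, which is also on the extraembryonic mesoderm list. Both measured haemato-endothelial genes stayed within 2-fold in each comparison. Of 2 measured trophoblast genes Cdx2 was higher and Eomes lower, at 39.2 and 154 CPM, at E7.25 against E7.0. Cells with Elf5, Rhox6 or Rhox9 were left out here, Cdx2 is also on the allantois list, and Eomes is also a streak-like marker. These 2 genes are therefore no measure of trophoblast. Of 10 visceral endoderm genes 8 were higher at E7.25 against E7.0, with a median of 1.14, and 9 were lower at E7.5 posterior against E7.25, with a median of -2.10.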

How the data were processed

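Single cells of 3 libraries were analysed, 1 per stage. The deposited values are raw UMI counts per gene and barcode, not scaled by the authors. Per the file headers, the software was Cell Ranger 6.0.1. The genome build is not given in the sources used here. GENCODE M21 (GRCm38), which gave the coordinates, held 32158 of the gene identifiers and lacked 127. Libraries held 111010034, 48836272 and 92190474 UMIs in 10232, 6173 and 11468 barcodes, in stage order.

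UMIs were summed over cells and scaled to CPM. Ratios have conditional binomial, sums Poisson and shares Clopper-Pearson 95% intervals, and no test was run. Clustering left out the 9 genes (2000 variable genes per library, 30 principal components, 15 neighbours, Leiden resolution 1, scanpy 1.11.5, leidenalg 0.10.2) and gave 22 clusters without integration. A name needed 3 or more markers among the top 100 genes by fold, and 4 clusters stayed unnamed. Pairs needed 20 positive cells of each gene. Predicted doublets, 504, 216 and 570 cells by the highest Scrublet scores, were kept and left out as an alternative. Ratio and thinning code was tested on simulated data. List genes named are at most 4 per list and comparison with the largest ratios at 2-fold or more, and likeness names the 3 highest, without mitochondrial, ribosomal, unnamed (Gm, Rik) and sex-specific genes. The members, lists, markers and settings were chosen with earlier results of these data known. Tbx4-positive cells and the subsets without the extraembryonic mesoderm-like cells were examined after the main values were seen.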

Additional observations from a re-analysis of the deposited data

Results flagged for a closer look

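Barcodes removed by the filters on detected genes and mitochondrial UMIs lie outside the comparisons and still held the 9 genes. Their summed level was 91.7, 319.7 and 196.5 CPM in the E7.0, E7.25 and posterior E7.5 libraries, against 110.3, 340.0 and 167.3 CPM in the analysed cells. The removed barcodes numbered 2291, 979 and 3030, and 3 UMIs in them would be 1.13, 2.58 and 0.706 CPM.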

How the results depend on the processing

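No paired analysis was possible because each stage is 1 library. Over 210 values of 7 genes in 3 comparisons under 10 alternatives, 180 stayed inside the interval of the reported value and 30 moved outside it. A reversal was counted only for values called as changed in the main setting, and 0 of these reversed. Msx1 at E7.5 posterior against E7.0, at 0.03 and not called, lay between -0.04 and 0.16 over the settings, so its sign changed. With no minimum on CPM the count of changed genes was 5 at E7.5 posterior against E7.25 and 4 at E7.5 posterior against E7.0, since rare and low genes then entered. Hand1 was among the lower genes at E7.5 posterior against E7.25 in 3 of 11 settings and Tbx3 in 10 of 11. The alternatives on high-UMI cells and on leaving out endoderm-like and trophoblast-like clusters were chosen after seeing the data. Median-of-ratios size factors moved log2 ratios by -0.07, 0.06 and -0.01 in the 3 comparisons, with E7.5 posterior against E7.0 last.

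Shares depend on depth. At 3000 UMIs per cell, cells with 3 or more genes were 1.72%, 8.68% and 3.64% in stage order, and unthinned 8.999%, 16.5% and 10.9%. Foxf1 was found in 19.6%, 26.1% and 26% of Hand1-positive cells at 3000 UMIs, and in 41.9%, 46.3% and 43.5% unthinned. At E7.25, at most 5% mitochondrial UMIs gave 13.6% of cells with 3 or more genes, leaving out visceral endoderm-like and trophoblast-like clusters gave 14.2%, and keeping trophoblast-positive cells gave Foxf1 in 31.7% of Hand1-positive cells. The extraembryonic mesoderm-like share was 0.164%, 6.37% and 1.47% at Leiden resolution 2. With 50 principal components the later stages had 12.1% and 6.53%, and without predicted doublets 4.47% at E7.5 posterior. With the extraembryonic mesoderm-like cells left out, 1 gene was changed at E7.25 against E7.0 at resolution 2, where none was otherwise. Hand1 UMIs in these cells were 6.71%, 49.9% and 21.6% at resolution 2, 10.2%, 77.8% and 58.7% with 50 principal components, and 11.3% at E7.0 and 52.1% at E7.5 posterior without predicted doublets. These recomputed values were chosen after seeing the data. Shares were lowest at E7.0 and highest at E7.25 in each setting given here for all stages. The cause was not tested.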

Other observations

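A visceral endoderm-like cluster whose cells had 1.82 times the median depth of their libraries held Hand1 at 58.3 CPM and Ahnak at 24.0 CPM in its 86 analysed cells at E7.25, while the larger E7.25 visceral endoderm-like cluster, with 505 analysed cells, held them at 5.17 and 1.48 CPM. The part of doublets in this difference was not tested.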
